A study of Homo sapiens with 8 samples.

Results

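Ribosome assembly in the nucleolus was followed through 41 genes that had been listed by name: the growth regulator MYC, subunits of RNA polymerase I, proteins of the small nucleolar ribonucleoproteins (snoRNPs), assembly factors of the small and the large ribosomal subunit, and abundant nucleolar proteins. Of these, 37 could be read from a probe set that carries their symbol alone, among 18377 genes read in that way, and where a gene had several such probe sets the one of highest mean signal was taken. NOP56 and PPAN lie only in probe sets shared with other genes, and EBNA1BP2 and GNL3 have no listed probe set, so these 4 were not analysed here. The measured members were 1 regulator (MYC), 3 polymerase subunits, 7 snoRNP proteins, 13 factors of the small subunit, 10 factors of the large subunit and 3 abundant nucleolar proteins.

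The cells were A549, an epithelial line from a human lung adenocarcinoma, grown on membranes and stripped of medium so that gas met the cell layer directly (air-liquid interface). In the morning they were exposed for 4 h to the fresh urban mix, here called the primary pollutants, and in the evening to the same mixture after it had aged in sunlight, here called the photochemically altered (PCA) pollutants. Control cells stood at the air-liquid interface for the same hours in incubator air (humidified air in the labels), which gives a morning control and an evening control, and the study calls the samples biological duplicates. RNA was taken 9 h after exposure and hybridised to 8 Human Gene 1.0 ST arrays, 2 for each of the 4 groups. Both arrays of a group come from 1 exposure run. The spread between them is therefore a spread within a run, and the mixture cannot be told apart from the run or from the time of day. The line is 1 tumour line without the other cells of a lung.

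A ribosome begins in the nucleolus, where RNA polymerase I transcribes a long precursor of the ribosomal RNAs. snoRNPs guide methylation and pseudouridylation of that precursor, a large processome folds and cuts the part that becomes the small subunit, and a separate set of factors matures the large subunit and accompanies it out of the nucleus. Growth signals set the rate of the process, in part through MYC, which binds the E-box sequence with its partner MAX and is known for raising transcription of assembly factors and of polymerase subunits.

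All values are log2 signals as deposited, and a difference of such signals is a log2 fold change. A member is said to have risen or fallen only where its adjusted p was under 0.05 and its change at least 1.5-fold; members with an adjusted p under 0.05 and a smaller change are described as higher or lower. The p-values are those of limma, adjusted by Benjamini-Hochberg over every probe set tested in the comparison, with n = 2 arrays per group. Markers of epithelium were bright: KRT8, an epithelial keratin, lay between 13.49 and 13.7 on the 8 arrays and its partner KRT18 between 13.5 and 14.08. PTPRC, which marks leukocytes, lay between 4.08 and 4.51, and PECAM1, which marks endothelium, between 5.24 and 5.6. The mean over 4 leukocyte genes was higher, between 6.42 and 6.67 on the 8 arrays, so PTPRC was dimmer than its list. The mean over 4 endothelial genes lay between 5.61 and 5.86, and the median over all genes was 7.41. After the PCA pollutants the epithelial cadherin CDH1 fell by 1.11 (SE 0.0721, adjusted p = 0.000699, limma), KRT7 was higher by 0.34 (adjusted p = 0.0313), and 4 of the 6 epithelial markers did not pass. The mean log2 signal of the 6 epithelial markers was 11.28 and 11.21 on the evening control arrays and 11.02 and 11.03 on the PCA arrays. It was also lower after the primary pollutants, at 11.09 and 11.05 against 11.35 and 11.28 in the morning control. All 6 had negative values there, with a median of -0.235 (-0.128 after the PCA pollutants), and 0 passed. Among 6 fibroblast genes, whose mean log2 signal went from 6.57 and 6.55 to 6.67 and 6.69, COL1A2 and DCN were higher and COL1A1 lower. The part of these shifts in the results below was not tested.

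The question put to these genes was whether growth signals that follow exposure are accompanied by changes in ribosome assembly. After exposure to the PCA pollutants the ribosome biogenesis genes leaned upward by small amounts. LYAR, a nucleolar protein of growing cells that takes part in precursor processing, rose 1.52-fold, and NOP16, RRP12, NOP2, NOLC1, BOP1, NIP7 and TSR1 were higher by between 1.18-fold and 1.33-fold. None of the 37 fell or was lower at an adjusted p under 0.05 (limma), and at an unadjusted p under 0.05 there were 14 higher and 0 lower (all genes 14.5% higher, 22.5% lower and 36.9% together). MYC itself and the most abundant nucleolar proteins did not pass. In a bulk sample fewer cells and less RNA per cell cannot be told apart, and array signals give each transcript relative to the rest. By release of lactate dehydrogenase, the study measured more cell death with the PCA pollutants than with the primary pollutants. The part of cell death in the values here was not tested. The deposited arrays did not share a common distribution. Quantile normalization moved the members' median log2 fold change from 0.158 to 0.261.

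In counts, 1 of 37 members rose (2.7%), beside 0.876% of the 17470 genes tested that rose and 2.66% that fell, 3.53% in all. Without the fold limit, 8 of 37 were higher (21.6%) and 0 lower, beside 5.63% of all genes higher and 14.1% lower. In either direction together the members' share of 21.6% was near the 19.7% of all genes, so that it is in their direction that the members' counts stood away from the background. On another scale the background moves as well: with the arrays centred on their medians 10.8% of members were higher, beside 3.45% of all genes higher and 18.5% lower, and with the arrays scaled to ribosomal protein genes 59.5% were higher, beside 23.9% and 7.2%. The median log2 fold change of the members was 0.158, against -0.00169 for all genes, and 31 of 37 (83.8%) had a positive value, against 49.7% of all genes. The members ranged from -0.13 (NOB1) to 0.60 (LYAR). Both PCA arrays lay above both evening control arrays for 25 members (67.6%; all genes 31.7%) and below both for 2 (5.41%; all genes 36.6%).

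**Figure D1:**
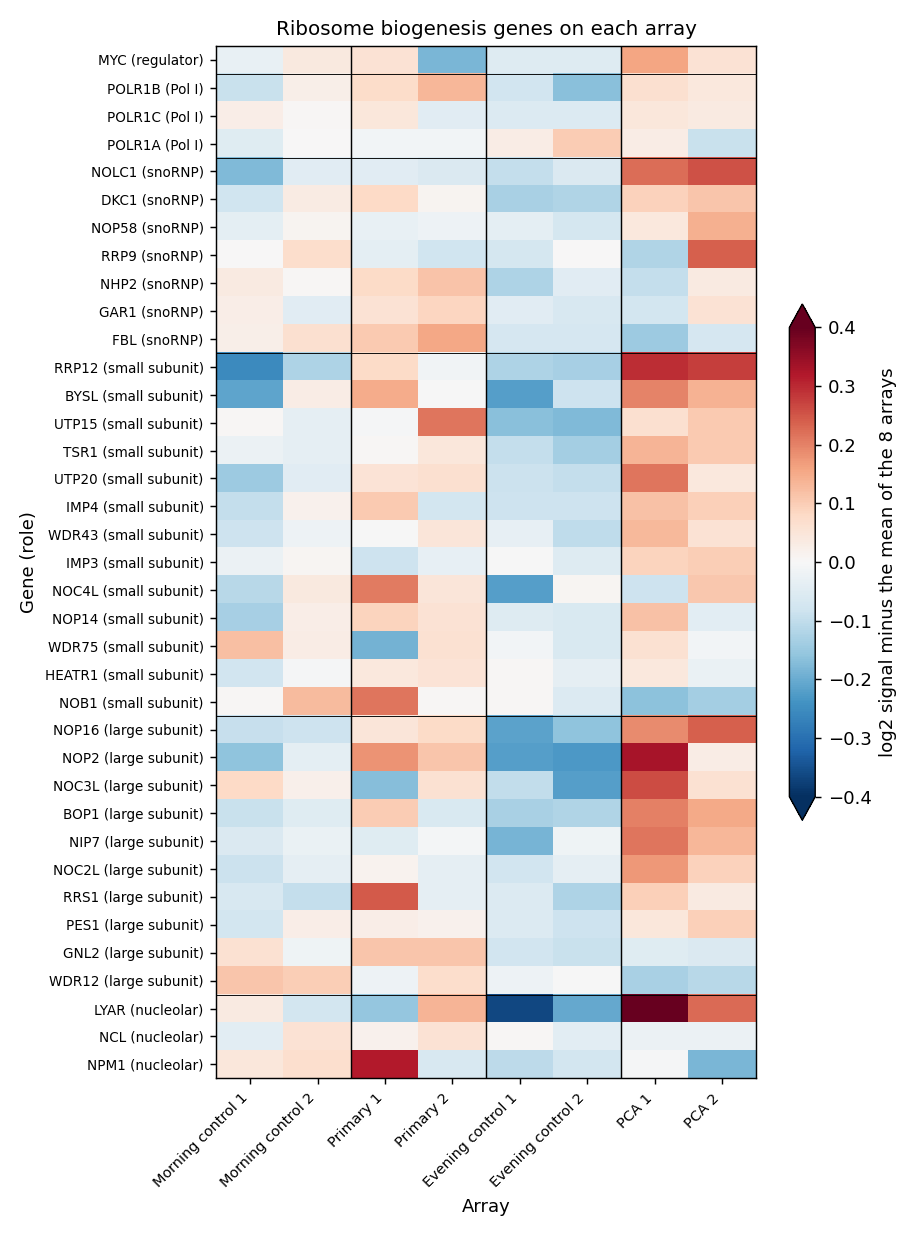
Each row is a measured ribosome biogenesis gene, ordered by role, and each column an array; colour gives the log2 signal less the gene's mean over the 8 arrays. The PCA columns are mostly on the higher side: 27 of 37 members lie above their own mean on each PCA array, against 5 and 4 on the evening control arrays.

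The large subunit factors held the most members past the test, 4 of 10 (40%), all higher. Of all genes 5.63% were higher and 19.7% passed in either direction. These 10 factors had a median of 0.236 and a range from -0.11 to 0.40. Of 49 other large subunit factors 6.12% passed, 1 higher and 2 lower, so the share of the 10 describes these genes alone. NOP16, a nucleolar protein of the large subunit precursor, read 8.62 and 8.67 on the evening control arrays and 9.02 and 9.07 on the PCA arrays. That is 1.32-fold higher (0.40, SE 0.0676, adjusted p = 0.00897, limma), and the PCA arrays also stand above the morning control (8.74 and 8.75) and the primary pollutants (8.88 and 8.91). NOP2, a methyltransferase that modifies large subunit rRNA, read 9.47 and 9.46 in the evening control and 10.02 and 9.72 after the PCA pollutants (0.40, SE 0.105, adjusted p = 0.0351). Its lower PCA array lies under both arrays of the primary pollutants, 9.87 and 9.80, so NOP2 separates the PCA pollutants from their own control and not from the morning exposure.

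BOP1, PES1 and WDR12 form the PeBoW complex, which large subunit precursors need in order to mature. Their RNAs did not move alike. BOP1 read 9.08 and 9.09 in the evening control and 9.41 and 9.36 after the PCA pollutants (0.30, SE 0.078, adjusted p = 0.0347). A weaker probe set of BOP1 gave 0.24 (SE 0.0738) and missed the threshold at an adjusted p of 0.0545. PES1 had a value of 0.14 (SE 0.0707, adjusted p = 0.193) and WDR12 of -0.11 (SE 0.0683, adjusted p = 0.286). WDR12 was 1 of 2 members whose PCA arrays, 9.90 and 9.92, lay below all 6 other arrays, of which the lowest read 10.01. NIP7, a precursor processing factor, read 9.67 and 9.84 in the evening control and 10.07 and 9.99 after the PCA pollutants (0.28, SE 0.0808, adjusted p = 0.049). NOC3L (0.32, adjusted p = 0.072) and NOC2L (0.19, adjusted p = 0.0883), which act in the transport of the large subunit precursor, did not pass although their PCA arrays stood above the evening control. For RRS1 the value was 0.16 and for GNL2 0.03.

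Of 13 small subunit factors 2 passed (15.4%), both higher, beside 5.63% of all genes higher and 19.7% in either direction. The median was 0.16 with a range from -0.13 to 0.41. RRP12, which helps carry the precursor out of the nucleus, read 8.66 and 8.65 in the evening control and 9.08 and 9.06 after the PCA pollutants (0.41, SE 0.0767, adjusted p = 0.0122, limma). Every other array, the primary pollutants at 8.86 and 8.77 included, lay below the PCA arrays. TSR1, a late maturation factor, read 9.90 and 9.86 and then 10.13 and 10.10 (0.24, SE 0.0666, adjusted p = 0.045). BYSL, needed for late processing, had a value as large as several that passed, 0.32, with a wider error (SE 0.105, adjusted p = 0.0675). UTP15 and UTP20, components of the processome, had values of 0.25 and 0.22 (adjusted p = 0.0769 and 0.0998). NOB1, the endonuclease that makes the last cut of the small subunit rRNA, was the other member whose PCA arrays lay below all the rest, at 9.44 and 9.47 against 9.61 and 9.55 in the evening control (-0.13, SE 0.0903, adjusted p = 0.327). The remaining factors, IMP3, IMP4, WDR43, WDR75, NOP14, NOC4L and HEATR1, had values between 0.03 and 0.18.

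The snoRNP proteins gave 1 of 7 past the test (14.3%), beside 5.63% of all genes higher and 19.7% in either direction. Their median was 0.0915. The member past the test was NOLC1, a chaperone that escorts snoRNPs to the nucleolus. It read 10.23 and 10.27 in the evening control and 10.55 and 10.58 after the PCA pollutants (0.32, SE 0.0736, adjusted p = 0.0248, limma). The other 4 morning and primary arrays of NOLC1 ran from 10.15 to 10.28, so the PCA arrays stood apart from all. DKC1, the pseudouridine synthase of the box H/ACA snoRNPs, read 9.89 and 9.90 and then 10.11 and 10.13, and missed the threshold (0.23, SE 0.0735, adjusted p = 0.067). Its partners GAR1 and NHP2 had values of 0.04 and 0.06, and the second probe set of NHP2 gave 0.12. FBL, the methyltransferase of the box C/D snoRNPs, read 11.02 on both evening control arrays and 10.94 and 11.02 after the PCA pollutants (-0.04, SE 0.07, adjusted p = 0.699). NOP58, which sits beside FBL, had a value of 0.14 and RRP9 of 0.09.

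MYC read 9.72 on both evening control arrays and 9.93 and 9.83 after the PCA pollutants. The groups did not overlap, and the value of 0.16 did not pass (SE 0.0934, adjusted p = 0.242, limma). The subunits of RNA polymerase I gave no common direction. POLR1A read 9.75 and 9.82 and then 9.75 and 9.63 (-0.09, adjusted p = 0.386), POLR1B 9.00 and 8.91 and then 9.14 and 9.12 (0.17, adjusted p = 0.136), and POLR1C had a value of 0.09.

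Of the abundant nucleolar proteins, nucleolin (NCL), a histone chaperone and rRNA binding protein, read 12.19 and 12.14 in the evening control and 12.16 on both PCA arrays, a value of -0.00165 (SE 0.0709, adjusted p = 0.988). NPM1, the nucleolar chaperone nucleophosmin, gave -0.00682 (SE 0.127, adjusted p = 0.973). Its probe set read only 5.98 and 6.01 and then 6.08 and 5.90 and is matched to the gene through a sequence record other than its RefSeq mRNA, so how well it follows the NPM1 message is unknown. LYAR read 7.71 and 7.87 in the evening control and 8.48 and 8.30 after the PCA pollutants (0.60, SE 0.118, adjusted p = 0.0144, limma). The morning control, at 8.11 and 8.0, stood above the evening control, and against the morning control the value was 0.34 (adjusted p = 0.0806), under 1.5-fold and past the threshold no longer.

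**Figure D2:**
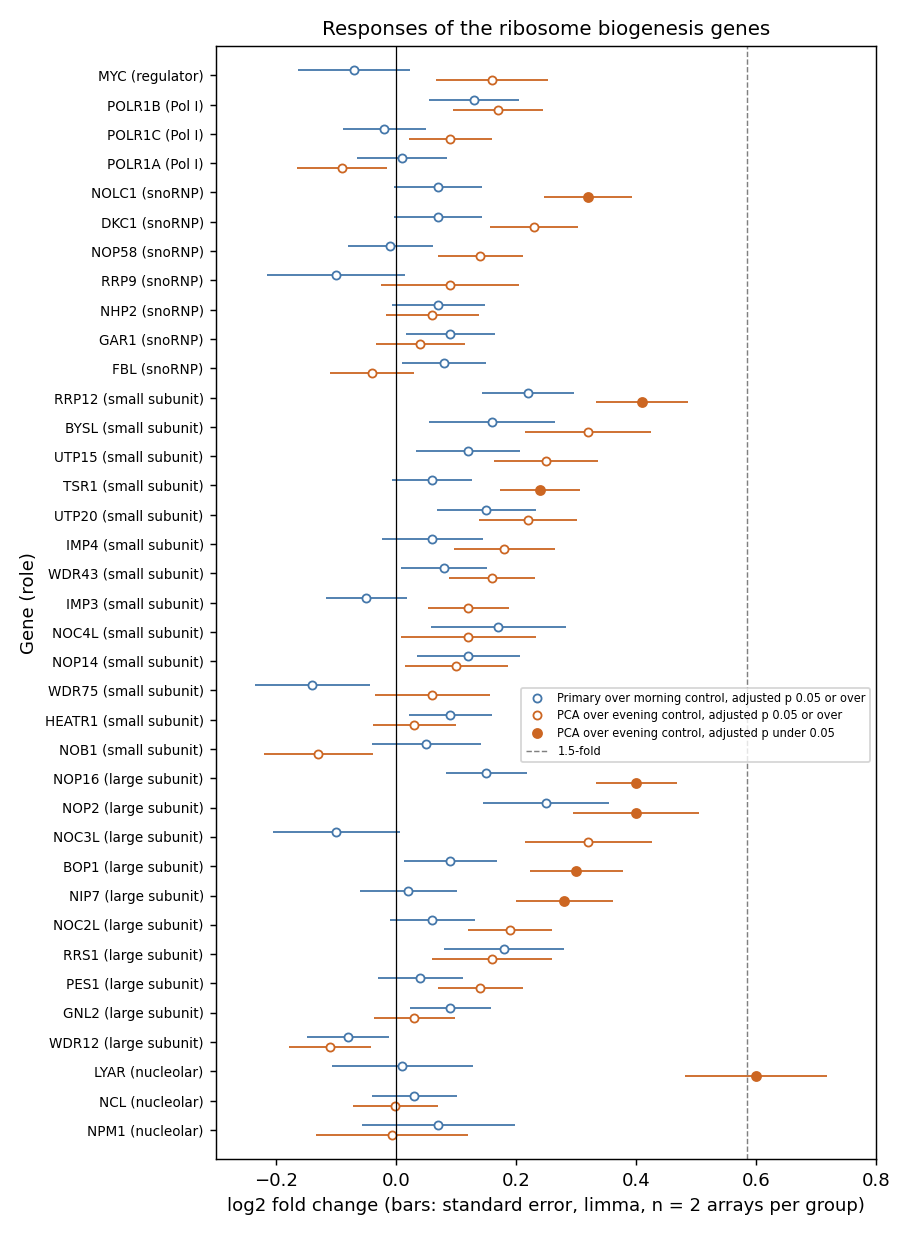
log2 fold changes of the 37 measured members with their standard errors (limma, 2 arrays per group), for either mixture over its own control group; filled points have an adjusted p under 0.05 and the dashed line marks 1.5-fold. Filled points occur for the PCA pollutants alone, 8 in number, and LYAR at 0.60 is the 1 past the dashed line.

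The primary pollutants moved no member past the test. Of 37 members 0 rose or fell, as for all genes, of which 0% passed (0 of 17381). At an unadjusted p under 0.05 there were 2 higher and 0 lower (all genes 3.27% higher, 4.63% lower and 7.9% together). These were RRP12, at 8.53 and 8.66 in the morning control and 8.86 and 8.77 after exposure (0.22, SE 0.0767, adjusted p = 0.509, limma), and NOP2, at 9.53 and 9.65 and then 9.87 and 9.80 (0.25, SE 0.105, adjusted p = 0.582). For both genes the arrays of the groups did not overlap. NOP16 (0.15), UTP20 (0.15), BYSL (0.16), NOC4L (0.17) and RRS1 (0.18) came next among the positive values, and WDR75 was lowest at -0.14. MYC read 9.74 and 9.81 in the morning control and 9.83 and 9.59 after exposure, a value of -0.07. The members' median was 0.0705 (all genes -0.00724), and 29 of 37 were positive. Both exposed arrays stood above both controls for 16 members (43.2%, all genes 17%) and below for 3 (8.11%, all genes 21.7%).

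The difference between the responses was tested in the same fit, and 0 of 37 members passed it, beside 0.439% of 17540 genes (0.0912% with a higher PCA response and 0.348% with a lower one, each by at least 1.5-fold). Of all genes 77 passed, and with any 1 array left out this came to between 0 and 3, 0 of them lower. At an unadjusted p under 0.05 there were 4 members with a higher PCA response and 0 with a lower one (all genes 6.2% and 11.4%). LYAR had the largest difference, 0.59 (SE 0.166, adjusted p = 0.14, limma), followed by NOC3L at 0.42 (SE 0.15, adjusted p = 0.21), NOP16 at 0.25 (SE 0.0956, adjusted p = 0.233) and NOLC1 at 0.25 (SE 0.104, adjusted p = 0.268). The median difference over the members was 0.128, against -0.0134 for all genes. For NOP2 the difference was 0.16 and for RRP12 0.20, less than each gene's own PCA response. No member was thus shown to respond differently to the mixtures, and none was shown to respond alike.

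The control groups themselves were not level. In the evening control 31 of 37 members had a lower mean than in the morning control, with a median of -0.0631 (all genes 0.00337). Both evening arrays lay below both morning arrays for 18 members (48.6%, all genes 19.7%) and above for 1 (2.7%, all genes 22.1%). None passed, at an adjusted p under 0.05 (0 of 17310 genes, 0%) or at an unadjusted p under 0.05 (all genes 2.83% higher, 2.14% lower and 4.97% together; limma). The lowest values were those of LYAR (-0.26, SE 0.118), NOC3L (-0.21), UTP15 (-0.15) and NPM1 (-0.14). The evening control enters both this comparison and the PCA response, so a low evening control raises the latter. Against all 6 other arrays instead of the evening control alone, both PCA arrays were highest for 14 of 37 members (37.8%; all genes 16.4%), namely BOP1, DKC1, IMP3, LYAR, MYC, NIP7, NOC2L, NOLC1, NOP16, NOP58, PES1, RRP12, TSR1 and WDR43. They were lowest for 2, NOB1 and WDR12 (5.41%, all genes 24.5%). With the morning control in place of the evening control, 3 members (8.11%) remained past the test, beside 5.98% of all genes higher and 14.1% lower. They were RRP12 (0.47, adjusted p = 0.00907, limma), NOLC1 (0.36, adjusted p = 0.0185) and NOP16 (0.30, adjusted p = 0.0237). The share of members higher was thus near that of all genes, and the members' median was 0.103.

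**Figure D3:**
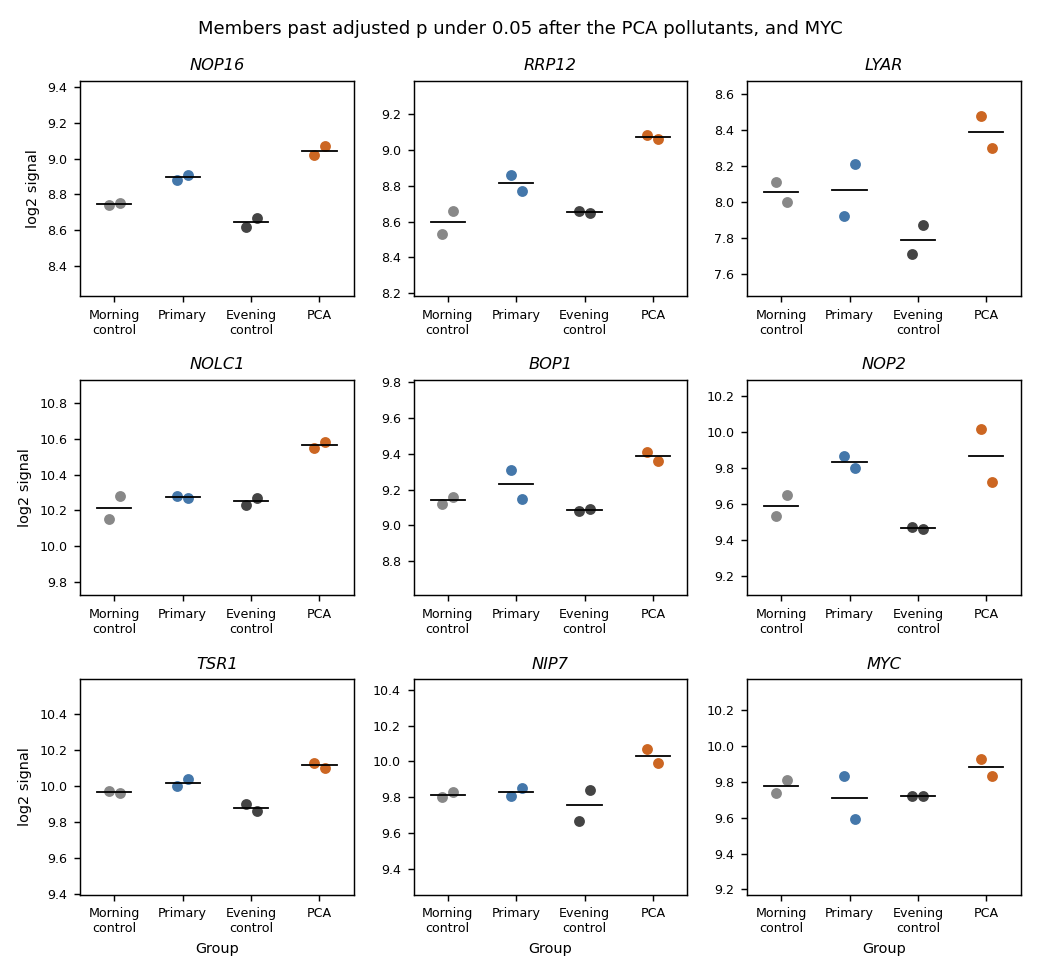
log2 signal on each of the 8 arrays, 1 panel per gene for the 8 members past an adjusted p of 0.05 and for MYC, with a line at each group mean; every vertical axis spans the same range of log2 units. NOP16, RRP12 and NOLC1 are highest on both PCA arrays, NOP2 after the PCA pollutants overlaps NOP2 after the primary pollutants, and LYAR is lowest in the evening control.

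Which members passed depended on single arrays, whereas their median stayed between 0.127 and 0.185 with any 1 array left out. Such a fit leaves 1 array in a group. Over all genes fewer passed as well when an evening control, PCA or morning control array was left out, so the loss was not particular to the members. Each of the 8 kept a positive value in all 18 alternatives tried. LYAR no longer passed without either evening control array or the first PCA array. NOP16 and RRP12 passed in 16 of those 18 and NIP7 in 5.

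The promoters of the members were read from RefSeq (GRCh38.p14), in a window of 300 bases that runs from 250 bases before to 50 bases after each gene's start, and 35 of the 41 members had one. Among them 12 (34.3%) held the E-box CACGTG, which reads the same on both strands, against 7.43% of 27305 promoters. In these 12 genes there were 13 E-boxes, of which 9 began after the start, between base 4 and base 36 of the transcript. The letters are shown here with 12 bases on either side, in the direction of transcription, with the E-box in capitals, to let its place and its neighbours be compared.
UTP20, chr12:101280083-101280112, plus strand: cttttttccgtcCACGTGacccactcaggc
RRP9, chr3:51941892-51941921, minus strand: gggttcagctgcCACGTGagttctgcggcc
FBL, chr19:39846356-39846385, minus strand: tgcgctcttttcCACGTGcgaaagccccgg
PES1, chr22:30591880-30591909, minus strand: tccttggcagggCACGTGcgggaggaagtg
BYSL, chr6:41921515-41921544, plus strand: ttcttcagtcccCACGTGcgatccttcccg
NOC3L, chr10:94362903-94362932, minus strand: tagggacttcggCACGTGtgtcattccccg
IMP4, chr2:130342682-130342711, plus strand: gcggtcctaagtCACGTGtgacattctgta
IMP4, chr2:130342900-130342929, plus strand: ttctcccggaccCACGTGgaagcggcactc
None of the genes in these lines passed the PCA test; BYSL and NOC3L had the smallest adjusted p among them. The ETS family sequence CGGAAG, searched on both strands, occurred in 15 of 35 members (42.9%; all promoters 19.9%), CCAAT, the sequence of the factor NF-Y, in 12 (34.3%; all promoters 35.7%) and the TATA box TATAAA in 1 (2.86%; all promoters 12%).

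Of the 8 members that passed, 5 had a promoter in the table, and 1 of these (NOP2) held an E-box; among 26 other measured members 10 did (38.5%). The ETS sequence was in 4 of the 5 (80.0%) and in 11 of the other 26 (42.3%). With 5 promoters these shares are descriptions of single genes. The 250 bases before the start are given for the members NOP16, LYAR and TSR1, which passed, with the ETS sequence of either strand in capitals.
NOP16, chr5:176388599-176388848, minus strand: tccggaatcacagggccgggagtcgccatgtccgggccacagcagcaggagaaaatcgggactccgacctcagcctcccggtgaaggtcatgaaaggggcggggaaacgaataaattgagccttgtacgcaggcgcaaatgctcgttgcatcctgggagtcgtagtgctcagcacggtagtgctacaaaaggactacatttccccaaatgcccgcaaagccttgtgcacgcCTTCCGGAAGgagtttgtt
LYAR, chr4:4290155-4290404, minus strand: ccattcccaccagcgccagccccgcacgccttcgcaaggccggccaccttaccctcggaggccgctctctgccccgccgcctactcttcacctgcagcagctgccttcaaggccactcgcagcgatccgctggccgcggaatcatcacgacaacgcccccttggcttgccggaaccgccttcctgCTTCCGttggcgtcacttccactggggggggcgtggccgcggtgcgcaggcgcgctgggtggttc
TSR1, chr17:2336458-2336707, minus strand: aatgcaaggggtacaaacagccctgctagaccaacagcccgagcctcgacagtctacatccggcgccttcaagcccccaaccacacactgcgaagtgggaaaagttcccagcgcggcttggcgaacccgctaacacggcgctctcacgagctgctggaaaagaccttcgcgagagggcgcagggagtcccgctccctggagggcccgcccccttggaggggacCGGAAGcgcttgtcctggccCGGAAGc
In NOP16 the sequence occurs on both strands with an overlap, just before the start, and in TSR1 both copies lie on the strand of the gene. The single copy of LYAR lies on the opposite strand. A match says that the letters are present and does not show that a factor was bound.

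Other factors of the same process, listed apart from the members, were closer to the middle of all genes in the PCA response. Beside the counts that follow, 5.63% of all genes were higher and 14.1% lower. Of 40 other small subunit factors 2 were higher and 0 lower, with a median of 0.052: PNO1, the partner of NOB1 on the precursor, by 0.31 (SE 0.0856) and NOL6 by 0.32 (SE 0.0877). Of 49 other large subunit factors 1 was higher and 2 lower, with a median of 0.0309. SBDS, which readies the large subunit for translation, was higher by 0.27, while NOP53 read 10.08 and 10.13 and then 9.58 and 9.66 and was lower (-0.48, SE 0.0714, adjusted p = 0.00578, limma), and RSL24D1 had a value of -0.31. Among 17 further genes of the polymerase I machinery POLR1G (0.35) and POLR2L (0.26) were higher and POLR1D (-0.38) lower. The exosome, which trims precursors, gave EXOSC6 higher (0.40) and EXOSC1 lower (-0.31) among 16, and polymerase III gave POLR3G (0.32) and POLR3K (0.27) higher among 19. None of the genes in these lists rose or fell in this fit. The study's own list has DHX37, a small subunit factor, as increased after the PCA pollutants. The probe set read here gave 0.15 for it (SE 0.0831, adjusted p = 0.22, limma). The same list has NOP53, there under the symbol GLTSCR2, as decreased past 1.5-fold. Here NOP53 was lower as well, by less than 1.5-fold. The reason for these differences was not tested.

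Ribosomal proteins, the parts to be assembled, leaned downward. Of 57 cytoplasmic ribosomal protein genes 0 were higher and 7 lower (12.3%, near the 14.1% of all genes), and the median was -0.161; it was -0.222 with the arrays centred on their medians, -0.0864 after quantile normalization and -0.016 when scaled to these genes themselves. RPS28 read 11.75 and 11.79 in the evening control and 11.31 and 11.26 after the PCA pollutants (-0.48, SE 0.0722, adjusted p = 0.00618, limma). RPLP2 (-0.48), RPS29 (-0.40) and RPL31 (-0.36) were likewise lower, and both PCA arrays lay below both evening control arrays for 45 of the 57 (78.9%; all genes 36.6%) and above for 3 (5.26%; all genes 31.7%). After the primary pollutants the median of the 57 was -0.0938, and 0 passed. Both exposed arrays lay below both morning control arrays for 33 (57.9%, all genes 21.7%) and above for 2 (3.51%, all genes 17%). In the evening less the morning control the median was -0.0793. Both evening arrays lay below both morning arrays for 28 (49.1%, all genes 19.7%) and above for 2 (3.51%, all genes 22.1%). The downward lean was thus not particular to the PCA pollutants. Of 33 translation factors 0 were higher and 4 lower (12.1%), near the 14.1% of all genes. Among the 4, EIF4B fell by 0.59 (adjusted p = 0.00278, limma), which is 3.03% of the list beside 2.66% of all genes that fell. EIF2S3, EIF3L and EEF2 were lower.

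Among growth signalling genes, 8 of 20 tested EGF receptor ligands and MAPK feedback genes rose and 0 fell, with a median of 0.453. Of all genes 0.876% rose and 2.66% fell. The lists of this paragraph were chosen with earlier results of these data known, so their counts are descriptions. A link from these genes to the members was not tested. EREG, a ligand of the receptor, rose 2.83-fold (8.65 and 8.70, then 10.19 and 10.16; adjusted p = 0.000699, limma), and the MAPK phosphatase DUSP5 rose 1.79-fold. Of 28 growth and metabolic genes known as MYC targets, 2 rose, CTPS1 of pyrimidine synthesis (0.85, adjusted p = 0.00331) and ODC1 of polyamine synthesis (0.74, adjusted p = 0.00253), 1 fell (SHMT1, -0.70), and SRM and PPAT were higher. Of 15 partners and regulators of MYC 1 was higher, MLX, and 3 were lower; FBXW7, which marks MYC for degradation, had a value of -0.57 (SE 0.12, adjusted p = 0.0175). In the mTOR pathway 3 of 20 genes fell, known as inhibitors of the kinase or of translation, DEPTOR (-1.13), SESN3 (-1.57) and PDCD4 (-1.50), and MTOR, TSC1, TSC2 and EIF4EBP2 were lower. Among 14 genes of nucleolar stress and the p53 response TP53INP1 (-1.42) and RPS27L (-0.62) fell and ZMAT3 was lower. Of 11 reference genes 0 were higher and 3 lower, with a median of -0.0756.

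**Figure D4:**
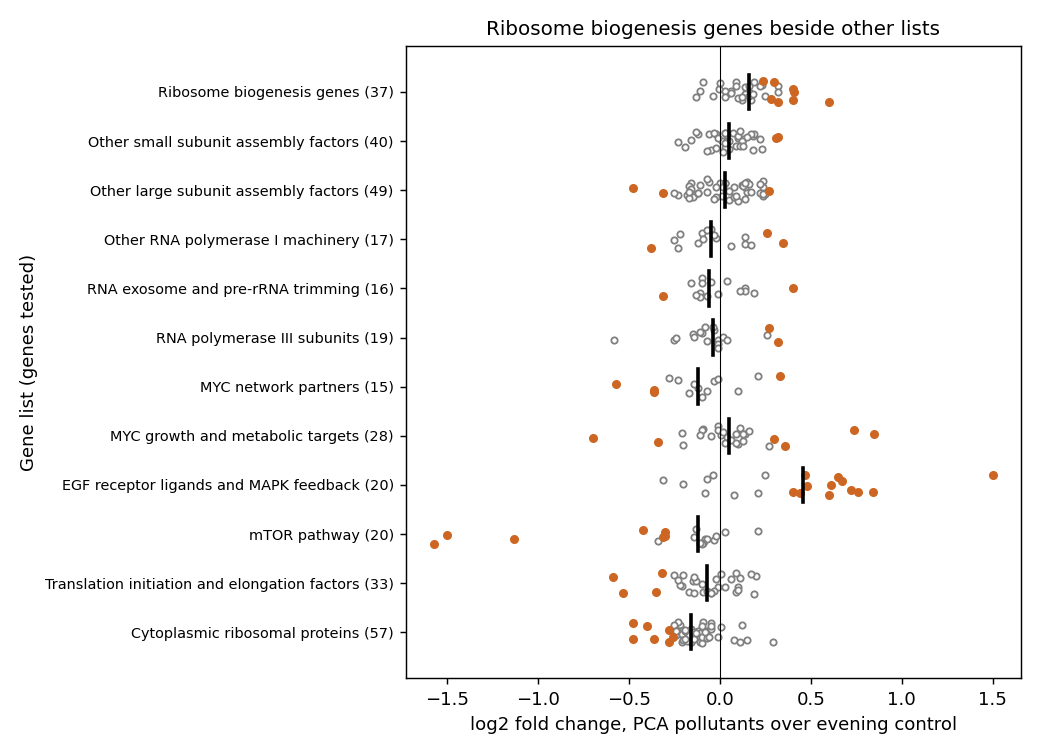
log2 fold changes of the PCA pollutants over the evening control for the ribosome biogenesis genes and other lists, 1 point per gene and a bar at each median; filled points have an adjusted p under 0.05. The members' median of 0.158 lies between the -0.161 of the ribosomal proteins and the 0.453 of the EGF receptor and MAPK genes.

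Several members carry snoRNA genes inside their introns, which are released when the host transcript is spliced. RefSeq places 27 snoRNA genes within 9 of the 41 members (the table gives no strand), and 7 of the snoRNAs have a probe set of their own. SNORA56, which lies in DKC1, has none and was not read here. The study's own list has it as increased after the PCA pollutants. SNORA51, which lies in NOP56, read 7.36 and 7.26 in the evening control and 7.58 and 7.62 after the PCA pollutants (0.29, SE 0.0822, adjusted p = 0.0448, limma). SNORA75, in NCL, read 7.33 and 7.36 and then 8.37 and 7.67, a value of 0.67 that did not pass (SE 0.223, adjusted p = 0.07), beside -0.00165 for its host. SNORD57 in NOP56 (0.00255), SNORD53 in WDR43 (-0.03), SNORD105 in PPAN (0.36) and SNORD82 in NCL (-0.05) did not pass either, and SNORD20 in NCL was too dim on the 4 arrays to be tested.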

How the data were processed

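RNA of A549 cells had been hybridised to 8 arrays, 2 in each of 4 groups, which were taken from the sample labels. The deposited values are log2 signals, which the authors computed by robust multichip averaging; the submitters' processing notes name Partek 6.4. They were used as deposited, and the number of arrays limits their precision. Of 28869 probe sets, 21062 had a gene in the annotation table, 19310 of them with 1 symbol and 1752 with several, which were not used.

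Group means over all 8 arrays were fitted with lmFit and eBayes of limma 3.58.1 (R 4.3.3), with 4 residual degrees of freedom, over probe sets that reached a signal of 30 on any array. A contrast was tested, and its p-values adjusted by Benjamini-Hochberg, over probe sets that reached 30 on an array of its groups (25264 for the PCA response). All 37 measured members were tested in every contrast. The median standard error was 0.091. The fit was also tested on simulated data, in which every added change was larger than that of any member. That simulation does not show how well changes of the members' size are found. Promoters and snoRNA positions came from RefSeq, and matplotlib 3.10.9 (Python 3.11.15) drew the plots.

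The members and all gene lists were chosen with earlier results of these data known, so counts over them are descriptions. Named were fixed members of each role, the 15 members of smallest p in the PCA response, the 4 of smallest p in each other contrast, the extremes of each role, up to 4 genes of each list and the snoRNAs within members; other names were chosen after their values were seen. Alternatives covered the filter on low signal, the scale of the arrays, the prior, the arrays in the fit, the probe set of a gene, a block for the replicate number, and fits that omit 1 array; exchanging the controls was added after seeing the data.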

Additional observations from a re-analysis of the deposited data

Results flagged for a closer look

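The PCA response differed from the primary response, at an adjusted p under 0.05 for the difference itself (limma, n = 2 arrays per group), for 5 genes of the lists set beside the members. For EREG the difference was 1.31 (SE 0.14, adjusted p = 0.0248), with a primary response of 0.19. For PDCD4 it was -1.24 (SE 0.149, adjusted p = 0.0359), for TP53INP1 -1.09 (SE 0.102, adjusted p = 0.023), for DEPTOR -0.72 (SE 0.105, adjusted p = 0.0392) and for CDH1 -0.70 (SE 0.102, adjusted p = 0.0392). These 4 had primary responses of -0.26, -0.33, -0.40 and -0.41, in the direction of their PCA response and short of the threshold. These calls rest on the full set of arrays. With the replicate number as a block none of the 5 passed (adjusted p from 0.0519 to 0.0915), and of 8 fits that each left out 1 array EREG passed in 1, without the first morning control array (adjusted p = 0.0301), and the other genes in 0. The differences kept their sign in those 8 fits, from 1.17 to 1.45 for EREG and from -1.36 to -0.65 over the others. Without the filter on low signal PDCD4, DEPTOR and CDH1 did not pass. No member of the ribosome biogenesis genes was among them.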

How the results depend on the processing

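The 8 members higher in the PCA response at any fold became 4 with the arrays centred on their medians or with only the arrays of the comparison, 17 after quantile normalization, 22 with the arrays scaled to ribosomal protein genes, which moves the median of all genes to 0.145, 15 with a trended and robust prior, and 0 to 9 with 1 array left out. None was lower under any of these. Of all genes 5.63% were higher and 14.1% lower in the main fit. These shares became 3.45% and 18.5% centred, 3.86% and 10.6% with only the arrays of the comparison, and 5.18% and 10.7% after quantile normalization. Scaled to ribosomal protein genes they were 23.9% and 7.2%, and with the trended and robust prior 6.59% and 19.2%. The members' own share was 45.9% after quantile normalization and 40.5% with that prior. The 1 member called at 1.5-fold (LYAR) became 0 with centred arrays and 0 to 1 with 1 array left out. The median of the members was 0.0978 centred, 0.261 after quantile normalization, 0.303 scaled to ribosomal protein genes and 0.127 to 0.185 with 1 array left out. With the controls exchanged, an alternative chosen after seeing the data, the counts were 3 and 0 and the median 0.103. The 3 were 8.11% of the members, beside 5.98% of all genes higher and 14.1% lower. For the primary response the median was 0.168 scaled to ribosomal protein genes, 0.0434 to 0.0936 with 1 array left out and 0.134 with the controls exchanged. For the difference between responses it was 0.0852 centred, 0.209 after quantile normalization, 0.176 scaled to ribosomal protein genes and 0.0712 to 0.142 with 1 array left out, and 1 member passed both rules with the trended and robust prior. For the evening less the morning control it was 0.0231 scaled to ribosomal protein genes, the opposite sign, and -0.0876 to -0.0322 with 1 array left out. The cause of these shifts was not tested.

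Replicate numbers did not pair the arrays: deviations of same-numbered arrays correlated at -0.0978 in the morning and 0.0263 in the evening. With the replicate number as a block, 4 members passed at any fold in the PCA response, and the members' other counts were as without it. Over all genes, 730 were higher and 1981 lower at any fold in the PCA response, against 983 and 2458 without the block, and the difference between responses held 2 higher and 0 lower, against 16 and 61.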
